A study of Mus musculus with 8 samples.

Results

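Axon guidance cues and their receptors were examined in the subventricular zone of the lateral ventricle: the Eph receptors and ephrins, the semaphorins of classes 3 to 7 with their plexin and neuropilin receptors, the Slits and Robos, and the netrins with their Unc5 and Dcc receptors. Members were all probes whose annotated gene symbol belonged to one of these families, chosen by name and not by value. They numbered 98 probes for 68 genes, of 32684 probes and 21363 genes in all. Samples were 4 from 3xTg mice and 4 from wild-type mice of the control strain (WT), all female, 7 months old and from a C57BL/6J (B6) by 129S1/SvImJ (129S) cross. The 3xTg line models Alzheimer's disease and carries, among other alterations, transgenes for human APP and MAPT under the control of a neuronal Thy1 cassette. The labels do not say whether a sample was 1 mouse or a pool. RNA of the microdissected tissue was hybridised to 2-colour arrays, with the 3xTg and WT samples of the same number on each of 4 arrays. The label field gives Cy5 for every 3xTg sample and Cy3 for every WT sample, whereas the labelling protocol names only Cy3. With the dyes of the label field there was no swap, and genotype and dye cannot be told apart. Values are log2 intensities normalized by the authors, with sample medians between 10.12 and 10.15, and each difference is 3xTg minus WT within arrays.

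Guidance molecules steer growth cones and migrating cells by attraction and repulsion. Ephrins bind Eph receptor kinases at cell contacts and signal into both cells, secreted class 3 semaphorins act through neuropilin and plexin complexes, and transmembrane semaphorins bind plexins directly. Slits repel through Robo receptors, while netrin attracts through Dcc and repels through Unc5. In the adult ventricular wall, neuroblasts born in this zone migrate in chains to the olfactory bulb, and Slits with their Robo receptors, B ephrins with EphB receptors, and Epha4 have known parts in that migration or in the niche.

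Of the 98 guidance probes, 1 passed the test (limma, Benjamini-Hochberg adjusted p under 0.05 over all probes), against 1.22% of all probes. This probe is for Sema6d, a transmembrane semaphorin that signals through A plexins, and it was higher in 3xTg. At the brightest probe of each gene 0 of 68 passed, against 1.18% of all genes, and 18 (26.5%) had an unadjusted p under 0.05 in limma, against 18.1% of all genes. Over the 98 probes 26 had an unadjusted p under 0.05, which is 26.5% against 18.0% of all probes, with 11 higher and 15 lower. Of all probes, 0.621% passed higher and 0.603% lower. In 24 of the 98 probes the sign was the same on all 4 arrays, against 25.3% of all probes, and in 4 the groups did not overlap, against 4.53%. Over genes the same counts were 16 of 68 with 1 sign, against 25.5% of all genes, and 3 of 68 without overlap, against 4.62%. The median difference over the 68 genes was 0.05, against 0.01 over all genes, and 40 of them (58.8%) lay above 0, against 52.6% of all genes. The number of passing guidance probes was thus close to the background, and what follows describes the members beside their replicate spread.

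Marker lists of neighbouring cell types differed between the groups, mostly on some arrays. Markers of striatal projection neurons, which adjoin the dissected zone, lay below 0 in 18 of 18 measured genes of 20 listed (median -0.92), with medians of -2.04, -1.52, 0.24 and -0.30 on arrays 1 to 4. The mean log2 level of that list ran from 12.23 to 13.94 in 3xTg and from 13.69 to 14.22 in WT. Septal and cholinergic markers lay above 0 in 8 of 11 measured genes of 12 listed, of which 2 passed, with medians of 0.91, 0.81, 0.39 and -0.02 on the arrays and mean levels of 10.81 to 11.79 in 3xTg and 10.51 to 10.98 in WT. Oligodendrocyte and myelin markers lay above 0 in 14 of 14 measured genes of 17 listed, with medians of -0.17, 0.58, 0.58 and 0.41 and mean levels of 12.10 to 12.68 in 3xTg and 11.84 to 12.32 in WT. Cortical and hippocampal glutamatergic markers lay below 0 in 10 of 11 measured genes of 12 listed (median -0.72), with medians of -0.71, -1.13, -1.0 and 0.39 on the arrays and mean levels of 10.63 to 11.69 in 3xTg and 11.30 to 12.43 in WT. Neuroblast markers had a median of 0.02 over 16 genes. Of these, 6 (37.5%) had an unadjusted p under 0.05 in limma, 3 higher and 3 lower. Ependymal markers had a median of -0.04 over 13, with medians of -0.42, -0.14, 0.51 and -0.34 on arrays 1 to 4 and 0 at that p. Markers of astrocytes and neural stem cells had a median of 0.09 over 15, with 7 (46.7%) at that p, 5 higher and 2 lower. Of all genes, 18.1% were at that p. In tissue RNA, fewer cells of a type and less RNA per cell cannot be told apart, and the part of tissue makeup in the results was not tested.

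The probe of Sema6d that passed (A_55_P2076861) measured 11.20, 12.91, 12.31 and 13.13 in the 3xTg samples of replicates 1 to 4 and 10.54, 11.84, 11.73 and 12.42 in the WT samples. The groups overlapped, and the samples of replicate 1 were the lowest of both, but the 3xTg sample was above the WT sample of its array every time. Group means were 12.39 ± 0.86 for 3xTg and 11.63 ± 0.79 for WT (± SD over 4 samples). The fitted difference was 0.76 ± 0.11 (SE), or 1.69-fold, with an adjusted p of 0.0307 in limma. A second and brighter Sema6d probe (A_55_P2125351) differed by 0.08 ± 0.10 (adjusted p = 0.713), with per-array differences of 0.20, 0.19, 0.07 and -0.13. The call at the first probe ended without replicate 1 (adjusted p = 0.0947), without replicate 2 (adjusted p = 0.245), without replicate 4 (adjusted p = 0.0681) and without replicates 1 and 2 (adjusted p = 0.358). With no array in the fit its adjusted p was 1, and with the array as a random block it was 0.0888.

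Sema6d lies on chromosome 2, and RefSeq lists 2 transcription starts for it in the promoter table of GRCm38.p6. The 200 bases upstream of each are shown because the 2 probes of this gene, the one guidance gene to pass, gave unlike differences. Both probes are annotated to 1 RefSeq transcript, and the sources used here do not say which start each reads. The windows are chr2:124089743-124089942 and chr2:124653381-124653580, both on the plus strand and 5′ to 3′, and capitals mark a GC box (GGGCGG on either strand).
Sema6d start 1: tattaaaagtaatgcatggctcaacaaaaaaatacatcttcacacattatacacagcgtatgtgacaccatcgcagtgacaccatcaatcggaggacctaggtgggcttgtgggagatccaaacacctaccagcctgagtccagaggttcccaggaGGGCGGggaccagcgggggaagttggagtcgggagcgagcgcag
Sema6d start 2: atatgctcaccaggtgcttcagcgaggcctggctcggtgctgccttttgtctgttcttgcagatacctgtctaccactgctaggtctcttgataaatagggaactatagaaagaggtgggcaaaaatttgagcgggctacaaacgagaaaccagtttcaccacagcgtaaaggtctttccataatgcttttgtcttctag
The first window held 1 GC box and 8 CG dinucleotides at a GC content of 52.5%, and the second held 0 GC boxes and 5 CG dinucleotides at 46.5%. A GC box was present in 31.0% of 32851 RefSeq windows of the same length. A CCAAT box (CCAAT, either strand) or a TATA box (TATAAA, either strand) was in neither window, and these letters were in 29.3% and 9.96% of all windows. The motifs are matches of letters only.

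**Figure D1:**
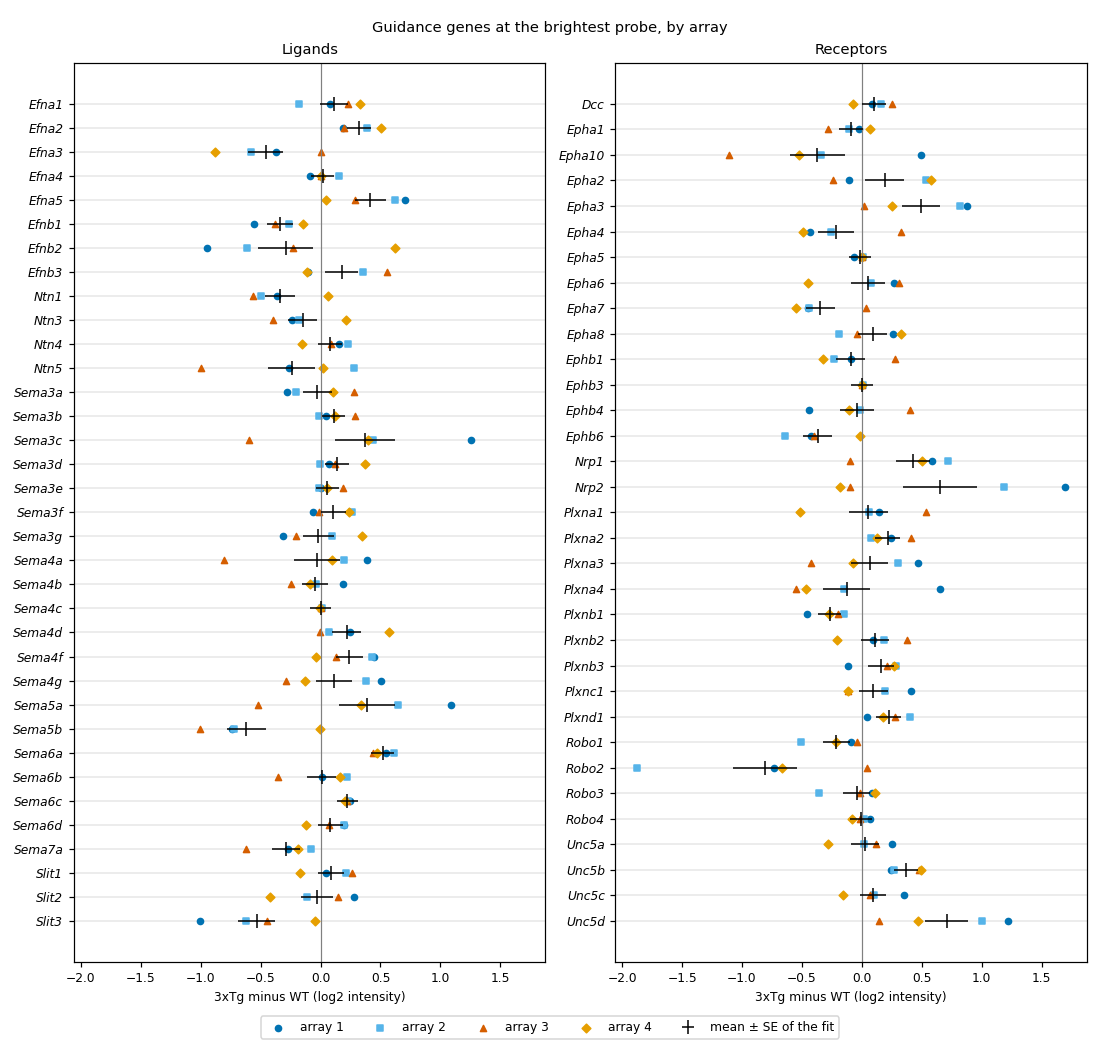
Difference between 3xTg and WT (log2 intensity) on each of the 4 arrays for the 68 guidance genes at their brightest probe, ligands on the left and receptors on the right, with the mean and SE of the fit. At these probes Sema6a and Sema6c lie at nearly the same place on all 4 arrays, whereas Nrp2 lies at 1.70 and 1.19 on arrays 1 and 2 and near 0 on arrays 3 and 4.

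The other class 6 semaphorins, transmembrane proteins that bind A plexins, lay above 0 at every probe. Sema6a (A_55_P2249849) measured 15.04, 14.89, 14.89 and 14.63 in 3xTg and 14.49, 14.27, 14.46 and 14.16 in WT. Every 3xTg sample was above every WT sample, and the difference of 0.52 ± 0.09 (SE; 1.43-fold) missed the threshold (adjusted p = 0.0506). Sema6a passed when samples were centred on their medians (adjusted p = 0.0431), with loess within arrays (adjusted p = 0.0475), with a trend and robust moderation (adjusted p = 0.0252), without the dimmest 25% of probes (adjusted p = 0.0467) and with the array as a random block (adjusted p = 0.0111). Its second probe (A_55_P2034625) differed by 0.33 ± 0.12 (adjusted p = 0.218). Sema6a is also a gene of oligodendrocytes. On array 1, where the myelin markers had a median of -0.17, the brightest Sema6a probe differed by 0.55, and on arrays 2 to 4, where they had medians of 0.58, 0.58 and 0.41, by 0.62, 0.43 and 0.47. The second probe differed by 0.02 on array 1 and by 0.29, 0.66 and 0.38 on the others, near 0 where the myelin median was lowest. The part of myelin RNA in these values was not tested. Sema6c (A_55_P2156126) differed by 0.25, 0.23, 0.22 and 0.21 on arrays 1 to 4, a spread far below its spread between samples of a group (SD 0.73 in 3xTg and 0.72 in WT), and it did not pass (0.22 ± 0.09, adjusted p = 0.249). The other Sema6c probe (A_55_P2143015) differed by 0.27, 0.32, -0.16 and 0.03. Sema6b differed by 0.01 ± 0.12. Sema6c and Sema6b fall outside the rule for named genes and were picked with their values in view.

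Class 5 semaphorins carry thrombospondin repeats and can attract or repel, and 2 were measured here, of which neither passed. Sema5b (A_55_P1973844) measured 11.52, 12.15, 11.74 and 12.73 in 3xTg and 12.26, 12.87, 12.74 and 12.73 in WT. The 3xTg samples of replicates 1 to 3 were below all WT samples, and on array 4 the genotypes were level, at -0.01. Array 4 was also the one on which the cortical and hippocampal markers lay above 0, and their part in the Sema5b values was not tested. The difference of -0.62 ± 0.16 (SE; 1.54-fold lower) did not pass (adjusted p = 0.121), but passed without replicate 4 (-0.82, adjusted p = 0.044). A second Sema5b probe differed by -0.34 ± 0.11 with groups that did not overlap (adjusted p = 0.192), and the remaining one by -0.05. Sema5a differed by 1.09, 0.64, -0.52 and 0.34 on arrays 1 to 4 (0.39 ± 0.23, adjusted p = 0.422), so its sign was not the same on every array. Sema7a, a membrane-anchored semaphorin that promotes axon growth through integrins, differed by -0.29 ± 0.12 (adjusted p = 0.253).

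Class 3 and class 4 semaphorins stayed near 0, with medians of 0.11 over 7 genes and 0.06 over 6. No member of either class passed, and 0 of 13 brightest probes had an unadjusted p under 0.05 in limma, against 18.1% of all genes. Sema3a, the prototype repellent of this class, differed by -0.03 ± 0.12 (adjusted p = 0.937) and by -0.06 at its other probe. Sema3c had the smallest p of class 3 and differed by 1.25, 0.44, -0.59 and 0.39 on arrays 1 to 4 (0.37 ± 0.25, adjusted p = 0.483), so its spread between arrays was larger than its mean. That probe was among the dimmest 25%. The other Sema3c probe lay on the opposite side of 0, at -0.14, with 0.66, -0.01, -0.76 and -0.44 on the arrays. Sema4f had the smallest p of class 4 (0.24 ± 0.12, adjusted p = 0.327). The Sema4c probe was at the highest value of the scale in all 8 samples, so that the genotypes could not be compared there.

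**Figure D2:**
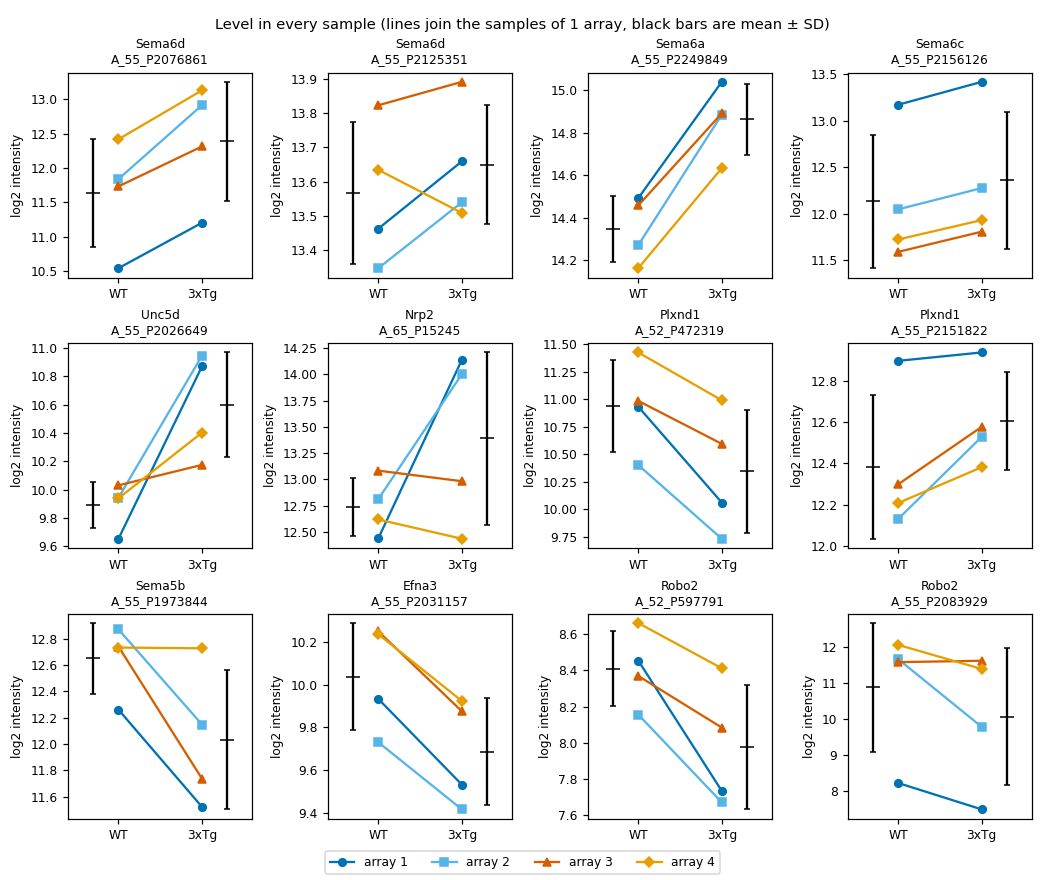
Log2 intensity in every sample for 12 probes, each panel with its own axis; lines join the WT and 3xTg samples of 1 array and black bars give mean ± SD (n = 4). The Sema6d probe that passed rose on every array although its groups overlap, while the Robo2 probe A_55_P2083929 was low in both samples of array 1.

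Among the ephrins, the ligands of Eph receptors, A members lay on both sides of 0. Efna5, a repellent cue of topographic maps, measured 12.78, 13.07, 12.60 and 12.45 in 3xTg and 12.07, 12.45, 12.31 and 12.40 in WT. The groups overlapped, and per-array differences ran from 0.70 on array 1 to 0.04 on array 4 (0.42 ± 0.13, adjusted p = 0.175). Efna2 differed by 0.32 ± 0.10 (adjusted p = 0.178), with 3xTg above WT on 4 of 4 arrays. Efna3 lay below 0 at both of its probes. The brightest differed by -0.46 ± 0.15 (adjusted p = 0.18), and A_55_P2031157 by -0.35 ± 0.09 (adjusted p = 0.118). At the latter the differences on arrays 1 to 4 were -0.40, -0.31, -0.37 and -0.31, smaller in spread than at the brightest probe, where they were -0.37, -0.58, 0.0009 and -0.88. Efna1 and Efna4 differed by 0.11 and 0.02.

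B ephrins are transmembrane ligands that also signal inward, and 3 of them were measured. Efnb1 measured 9.54, 9.88, 10.00 and 10.04 in 3xTg and 10.09, 10.15, 10.38 and 10.18 in WT. All 3xTg samples were below all WT samples, and the difference of -0.34 ± 0.10 (SE) did not pass (adjusted p = 0.17). Efnb2 measured 14.18, 14.60, 14.64 and 15.56 in 3xTg and 15.13, 15.21, 14.87 and 14.93 in WT. Its differences of -0.95, -0.62, -0.23 and 0.62 changed sign between arrays (-0.29 ± 0.23, adjusted p = 0.548), and its other probe gave the same order at -1.18, -0.66, -0.39 and 0.37. Efnb3 differed by 0.18 ± 0.14 (adjusted p = 0.546).

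Eph receptors, 9 of class A and 4 of class B, had a median difference of -0.04, and 0 of 13 passed. Of the 13, 3 (23.1%) had an unadjusted p under 0.05 (limma), against 18.1% of all genes. Epha3 measured 9.25, 9.23, 8.59 and 9.06 in 3xTg and 8.38, 8.41, 8.56 and 8.81 in WT. On arrays 1 and 2 it differed by 0.87 and 0.82 and on arrays 3 and 4 by 0.02 and 0.25 (0.49 ± 0.16, adjusted p = 0.182). Epha4, a receptor of ependymal cells and astrocytes in this niche that binds ephrins of both classes, differed by -0.44, -0.26, 0.33 and -0.49 (-0.22 ± 0.15, adjusted p = 0.486). The brightest probe of Epha7, a repulsive ephrin receptor, differed by -0.35 ± 0.12 (adjusted p = 0.203), and its others by 0.11 and 0.04. Ephb6, a family member without kinase activity, differed by -0.37 ± 0.12 (adjusted p = 0.185) and by 0.01 at its other probe. Ephb3 was at the highest value of the scale in all 8 samples and the brightest Epha5 probe in 6 of 8. The other Epha5 probes differed by 0.45 and 0.25 (adjusted p = 0.4 and 0.385). No probe carried the symbol Ephb2, so this gene could not be analysed.

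Neuropilins bind class 3 semaphorins and also act as co-receptors for vascular endothelial growth factor. Nrp2 (A_65_P15245) measured 14.14, 14.00, 12.98 and 12.44 in 3xTg and 12.44, 12.81, 13.08 and 12.62 in WT. The 3xTg samples of replicates 1 and 2 stood above all others, and those of replicates 3 and 4 were within or below the WT range. Differences were 1.70, 1.19, -0.10 and -0.18 on arrays 1 to 4 (0.65 ± 0.31, adjusted p = 0.32), and the second Nrp2 probe gave 0.96, 0.67, -0.13 and 0.03. Nrp1 differed by 0.58, 0.72, -0.10 and 0.50 (0.42 ± 0.14, adjusted p = 0.197).

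Plexins, the signalling receptors of semaphorins, differed little at the brightest probe, with a median of 0.09 over 9 genes and 0 of 9 passing. Of the 9, 1 (11.1%), Plxnb1, had an unadjusted p under 0.05 (limma), against 18.1% of all genes. Plxnb1, a receptor of class 4 semaphorins, differed by -0.27 ± 0.10 and was lower on 4 of 4 arrays (adjusted p = 0.221). Plxnd1, the receptor of Sema3e, gave opposite differences at its 2 probes, which are annotated to the same transcript. At A_52_P472319 it measured 10.06, 9.73, 10.60 and 10.99 in 3xTg and 10.93, 10.40, 10.98 and 11.42 in WT. That is a difference of -0.59 ± 0.11, with 3xTg below WT on 4 of 4 arrays (adjusted p = 0.0611), which passed with a trend and robust moderation (adjusted p = 0.0234). At the brighter A_55_P2151822 it differed by 0.22 ± 0.10, above 0 on 4 of 4 arrays (adjusted p = 0.302). Plxna2, a receptor of class 3 and class 6 semaphorins, also split, at 0.21 ± 0.10 for the brighter probe and -0.43 ± 0.17 for the other (adjusted p = 0.318 and 0.235).

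Slits and Robos had a median of -0.05 over 7 genes, and 0 of 7 passed. At an unadjusted p under 0.05 (limma) were 2 (28.6%), against 18.1% of all genes. Slit1 and Slit2, the chemorepellents that guide neuroblasts away from the septum and choroid plexus, differed by 0.09 ± 0.11 and -0.03 ± 0.13 (adjusted p = 0.724 and 0.933). Slit3 measured 9.19, 9.34, 9.81 and 10.54 in 3xTg and 10.20, 9.97, 10.25 and 10.59 in WT. Its differences were -1.01 and -0.62 on arrays 1 and 2 and -0.44 and -0.05 on arrays 3 and 4 (-0.53 ± 0.15, adjusted p = 0.15). Robo2, a Slit receptor of migrating neuroblasts, lay below 0 at its 3 probes. At the brightest (A_55_P2083929) it measured 7.50, 9.79, 11.62 and 11.39 in 3xTg and 8.23, 11.66, 11.58 and 12.06 in WT, so both samples of array 1 lay far below the WT samples of the other arrays (-0.81 ± 0.26, adjusted p = 0.185). The 3xTg sample was below the WT sample on 4 of 4 arrays at A_52_P597791 (-0.44 ± 0.11, adjusted p = 0.118), and the remaining probe differed by -0.24. Both of these dimmer Robo2 probes were among the dimmest 25% of probes. Robo1 differed by -0.21 ± 0.11 (adjusted p = 0.358).

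Netrins and their receptors held 9 measured genes with a median of 0.08, of which 0 passed. An unadjusted p under 0.05 (limma) was found in 3 (33.3%), against 18.1% of all genes. Ntn1, the founding member, lay at -0.34 ± 0.13 for the brighter probe and -0.16 for the other (adjusted p = 0.224 and 0.448). Both Ntn1 probes were among the dimmest 25% of probes. The attractive receptor Dcc differed by 0.10, 0.18 and 0.16 at its 3 probes (adjusted p = 0.63, 0.655 and 0.485). Unc5d, a repulsive netrin receptor that also binds Flrt proteins, measured 10.87, 10.95, 10.18 and 10.40 in 3xTg and 9.65, 9.94, 10.03 and 9.94 in WT. Each 3xTg sample was above each WT sample, with differences of 1.22 and 1.00 on arrays 1 and 2 and 0.14 and 0.46 on arrays 3 and 4. The mean difference was 0.71 ± 0.18 (SE; 1.63-fold, adjusted p = 0.112), and Unc5d passed with the array as a random block (adjusted p = 0.039). Unc5b differed by 0.37 ± 0.10 and was higher on 4 of 4 arrays (adjusted p = 0.127). Unc5a and Unc5c differed by 0.02 and 0.09.

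**Figure D3:**
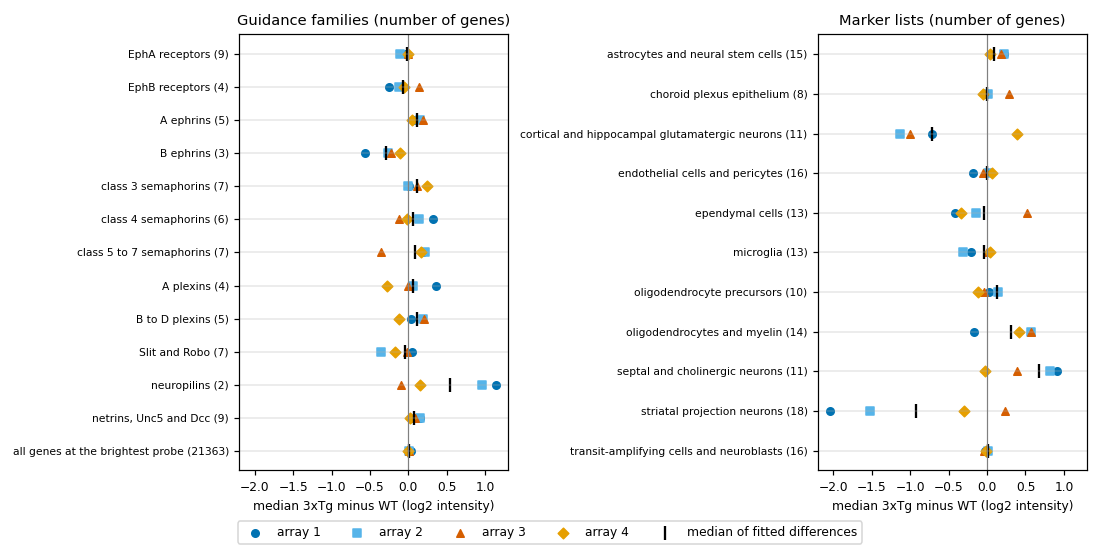
Median difference between 3xTg and WT (log2 intensity) on each of the 4 arrays for the 12 guidance families and all genes on the left, and for the marker lists of other cell types on the right; black bars are the medians of the fitted differences and numbers in brackets are genes measured. The neuropilin, striatal, and septal and cholinergic medians lie far from 0 on arrays 1 and 2 and nearer to it on arrays 3 and 4.

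The differences of several members varied between arrays. For each gene the mean difference on arrays 1 and 2, where striatal markers were far lower in 3xTg, was set against that on arrays 3 and 4. This division was chosen after the marker values were seen. Septal and cholinergic markers also differed between these arrays, with medians of 0.91 and 0.81 on arrays 1 and 2 and 0.39 and -0.02 on arrays 3 and 4. The part of either marker list in the gaps was not tested. The 2 means lay over 0.5 log2 units apart in 13 of 68 guidance genes, which is 19.1%, against 8.53% of all genes. Nrp2 had the widest gap (1.44 against -0.14), followed by Robo2 (-1.30 against -0.31), Efnb2 (-0.78 against 0.20), Sema5a (0.87 against -0.09), Sema3c (0.84 against -0.10), Epha10 (0.08 against -0.82) and Unc5d (1.11 against 0.30). Arrays of a pair were not always alike. Robo2 differed by -0.73, -1.88, 0.04 and -0.67 on arrays 1 to 4, and Epha10 by 0.50, -0.34, -1.11 and -0.52. Efnb2, Sema5a and Sema3c changed sign between arrays 3 and 4. Without replicates 1 and 2 the median over the 68 guidance genes was -0.01, and 0 of 98 probes passed, with 8 at an unadjusted p under 0.05 (limma). Of all 32684 probes, 161 passed in that fit and 2248 were at that p, so calls were fewer among all probes too. On arrays 3 and 4 the Sema6d probe that passed differed by 0.58 and 0.71, and the brighter Sema6d probe by 0.07 and -0.13.

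**Figure D4:**
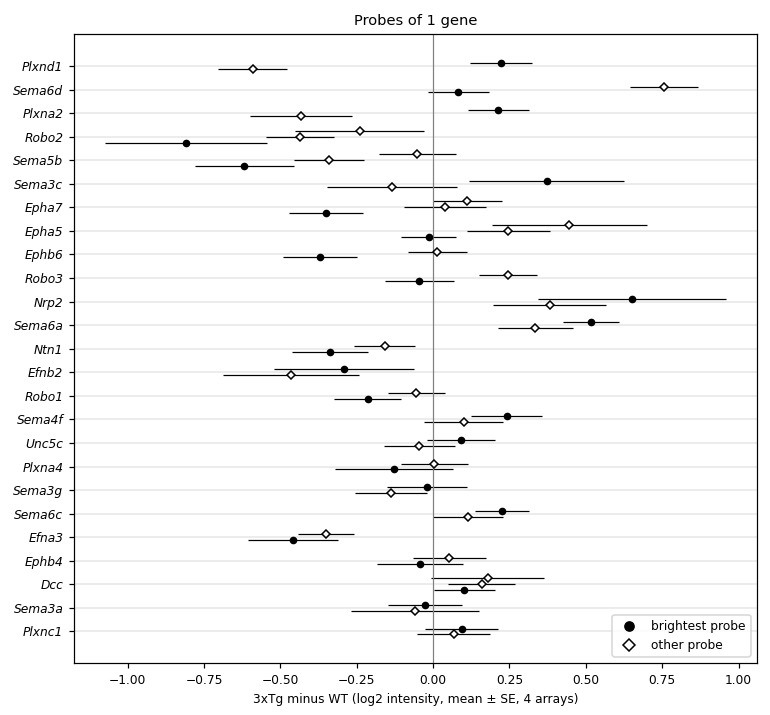
Difference between 3xTg and WT (log2 intensity, mean and SE of the fit, 4 arrays) at each probe of the 25 guidance genes with several probes. Genes are ordered by the gap between the lowest and highest probe. Plxnd1, Sema6d and Plxna2 had the widest gaps, and for Plxnd1 and Plxna2 the probes lie on opposite sides of 0.

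Probes of 1 gene were compared for the 25 genes that had several. Signs were alike in 15 genes and unlike in 10, and the median gap between the lowest and highest probe was 0.18. Probes were not compared in this way for genes outside the guidance families. Whether these counts are particular to guidance genes therefore cannot be said. Gaps were 0.81 for Plxnd1, 0.67 for Sema6d, 0.65 for Plxna2, 0.57 for Robo2 and 0.57 for Sema5b. Genes with the same sign at all probes and an unadjusted p under 0.05 (limma) at 2 of them were Efna3, Robo2, Sema5b and Sema6a. Of all probes, 18.0% were at that p. For Robo2, 1 of the 2 probes was among the dimmest 25%.

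Genes that act with these receptors were taken from lists of signal transducers, co-receptors and other cues, and neuroblast migration, chosen by known role. At the brightest probe 3 of 115 genes passed, 1 higher and 2 lower, against 1.18% of all genes. Among 47 signal transducers, with a median of 0.0095, 1 rose and 1 fell. Of these 47, 13 (27.7%) had an unadjusted p under 0.05 in limma, against 18.1% of all genes. In 17 (36.2%) the sign was the same on all 4 arrays, against 25.5%, and in 6 (12.8%) the groups did not overlap, against 4.62%. Mical2, an oxidase of the MICAL family, which disassembles actin filaments and acts in semaphorin signalling in flies, measured 12.18, 12.28, 12.01 and 12.34 in 3xTg and 12.99, 13.70, 13.70 and 12.88 in WT. All 3xTg samples were below all WT samples, and Mical2 fell by 1.12 ± 0.19 on the log2 scale (SE; 2.17-fold, adjusted p = 0.0427). On arrays 1 to 4 it differed by -0.81, -1.41, -1.69 and -0.55, beside the cortical and hippocampal medians given above, whose part was not tested. The other Mical2 probes differed by -0.84 and -0.03 (adjusted p = 0.0541 and 0.924). Enah, an actin regulator that acts downstream of netrin and Robo receptors, rose from 14.18 in WT to 14.74 in 3xTg (0.56 ± 0.10, adjusted p = 0.0453), and its other probe differed by 0.13. Farp2, which links neuropilin and plexin to Rac, differed by 0.45 ± 0.09 (adjusted p = 0.0751) and by -0.11 at its other probe.

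Dpysl4 and Dpysl5 are members of the CRMP family that relays semaphorin signals to microtubules, and they passed only at probes that were not their brightest. Dpysl5 (A_55_P2062826) measured 8.08, 8.43, 7.98 and 9.27 in 3xTg and 9.98, 9.73, 9.78 and 10.37 in WT. All 3xTg samples were below all WT samples, and this probe fell by 1.52 ± 0.15 on the log2 scale (SE; 2.87-fold, adjusted p = 0.007). Its brighter probe, near the top of the scale, differed by -0.23 (adjusted p = 0.326). All 3xTg samples were below all WT samples there too. The WT samples of replicates 2 and 4 were at the highest value of the scale, which limits the difference that could be seen. Dpysl4 fell by 0.91 ± 0.15 at A_55_P1988413 (adjusted p = 0.0394) and differed by -0.19 at its brighter probe. Both were picked with their values in view.

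Of 35 genes of neuroblast migration 1 passed, with a median of 0.05. Dclk1, a doublecortin-like kinase of neuroblasts and neurons, measured 14.40, 14.55, 15.04 and 14.78 in 3xTg and 15.19, 15.12, 15.48 and 15.30 in WT. The groups did not overlap, and Dclk1 fell by 0.58 ± 0.10 on the log2 scale (SE; 1.49-fold, adjusted p = 0.0463). On arrays 1 to 4 this probe differed by -0.79, -0.57, -0.43 and -0.53. The other Dclk1 probes differed by -1.12, -0.59 and -0.18. The first of these others differed by -1.89, -1.79, -0.40 and -0.39 on arrays 1 to 4. These values stand beside the striatal medians given above, whose part was not tested. The reelin adaptor Dab1 (-0.42 ± 0.10, adjusted p = 0.103) and the transcription factor Sp8 (-0.45 ± 0.11, adjusted p = 0.106) did not pass. The other Dab1 probes differed by -0.35, -0.34 and 0.22, and the other Sp8 probe by 0.49. Of 33 co-receptors and other cues, with a median of 0.06, 0 passed. An unadjusted p under 0.05 (limma) was found in 5 (15.2%), against 18.1% of all genes. The smallest p among them belonged to Gfra1, the receptor of the attractant Gdnf, at 13.20 ± 0.28 for 3xTg and 12.45 ± 0.12 for WT (± SD over 4 samples), which differed by 0.75 ± 0.15 (adjusted p = 0.0678). Next came Dscaml1 (-0.42 ± 0.12, adjusted p = 0.138) and the netrin-G gene Ntng1 (0.27 ± 0.10, adjusted p = 0.226). The other Ntng1 probes differed by 0.71 ± 0.15, higher on 4 of 4 arrays (adjusted p = 0.0798), and by 0.24 (adjusted p = 0.471), and the other Dscaml1 probe by -0.21 (adjusted p = 0.401). Without replicate 1, 2 or 3 alone, 0 of the 115 genes passed, with 21, 12 and 33 at an unadjusted p under 0.05 (limma). Of all 32684 probes, 4756, 2777 and 6628 were at that p in these fits, and 131, 31 and 414 passed. Without replicate 4 only Mical2 passed among the 115 genes, against 278 of all probes.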

How the data were processed

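The deposited table holds 1 normalized log2 intensity per probe and sample for 8 samples on 4 arrays. Limma was used by the authors, per the submitters' processing notes. How background and scale were corrected and probes filtered is not given in the sources used here. Without scanner files, no call of signal above background was made. Probes were named through the platform annotation (1 symbol for 29769 probes, several for 0, none for 2915), and all 68 guidance genes were matched by Entrez identifier to RefSeq of GRCm38.p6.

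The model, fitted by limma 3.58.1 (R 4.3.3), held array and genotype as fixed effects. Two-sided p-values were adjusted by Benjamini-Hochberg across the 32684 probes, with a threshold of 0.05. Each SE is that of the fit, with a variance moderated by limma over all probes. It is not the SE of the 4 array differences of that probe alone. Same-numbered samples share an array per the labels, and their deviations from the group means correlated at 0.78, 0.78, 0.54 and 0.82. The fit was checked on simulated data. With 4 arrays the precision is limited by their number. A gene is represented by its brightest probe. Named genes were every guidance probe that passed, the 12 genes of smallest p, and that of smallest p in each of 12 families. Also named were the 14 measured of 15 listed members with known roles and up to 3 genes of each pathway list. Others are the second probes of these genes, genes that complete a class, and genes picked with their values in view. The members and lists were chosen with earlier results of these data known. Alternatives were other blocks (statmod 1.5.0), scalings, moderation, a filter on dim probes, averaging probes, and leaving out arrays. A fit without replicates 1 and 2 was added after seeing the data.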

Additional observations from a re-analysis of the deposited data

Results flagged for a closer look

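Among 76 groups of 4 samples of the 38 named probes, 2 held a sample far from the others, where chance flags about 1 group in 20. At the brightest Robo2 probe the WT sample of replicate 1 measured 8.23, whereas the other 3 WT samples lay between 11.58 and 12.06, and the 3xTg sample of the same array was also the lowest of its group. At the brightest Efna3 probe the WT sample of replicate 2 measured 10.94, against 11.14 to 11.17 in the others.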

How the results depend on the processing

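All probes past the threshold numbered 400, against 78 with no replicate block, 1309 with the array as a random replicate block, 905 with trend and robust moderation, 247 with quantile normalization, 247 with probes of a gene averaged, 161 without replicates 1 and 2, and 31 to 414 with 1 replicate left out. Guidance probes past it numbered 1, against 0 with no replicate block (10 at an unadjusted p under 0.05 in limma), 0 with averaged probes (16) and 0 without replicates 1 and 2 (8), 2 with the array as a random replicate block, centring, loess or without dim probes, 3 with trend and robust moderation, and 0 to 1 with 1 replicate left out; the fit without replicate 4 called Sema5b and not Sema6d. Pathway genes past it numbered 3, against 0 with no replicate block (11 at an unadjusted p under 0.05 in limma), 0 with quantile normalization (27) and 0 without replicates 1 and 2 (8), 1 with averaged probes, 5 with trend and robust moderation, 6 with the array as a random replicate block, and 0 to 1 with 1 replicate left out. Of all 32684 probes, 2071 had an unadjusted p under 0.05 in limma with no replicate block, 5847 with quantile normalization and 2248 without replicates 1 and 2. With averaged probes 3930 of 21363 genes did. The median over guidance genes was 0.05 and moved to -0.013 without replicates 1 and 2. With averaged probes Sp8 became 0.019 and Plxna2 -0.11. With 1 replicate left out Sema3a ranged from -0.13 to 0.057 and Slit2 from -0.13 to 0.10, and without replicates 1 and 2 Sema3a was 0.19. Without replicates 1 and 2 Nrp2 became -0.14, Sema3c -0.10 and Efnb2 0.20. The cause of these changes was not tested, beyond the fewer samples or probes in the fits that leave some out.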
